A study of Mus musculus with 9 samples.

Results

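The enzymes described here modify foreign and endogenous small molecules so that they can be excreted. They are the cytochrome P450s of families 1 to 4 (Cyp1 to Cyp4), the flavin-containing monooxygenases (Fmo), the epoxide hydrolases (Ephx), the glutathione S-transferases (Gst), the UDP-glucuronosyltransferases (Ugt), the sulfotransferases (Sult) and 4 single genes, Inmt, Nqo1, Aox1 and Alas1. Members were chosen by gene symbol, from probe sets that the platform annotation pairs with exactly 1 gene, and each gene was represented by its probe set with the highest mean over all arrays. This gave 110 of the 18193 genes measured, with 140 of 45037 probe sets. Por, the reductase that feeds electrons to P450s, had no probe set paired with it alone and was not analysed here.

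RNA of the aorta of male mice, 1 array per sample, came from 4 samples labelled BMAL-/- (F02, F03, F05 and F08) and 5 labelled BMAL+/+ (F01, F04, F07, F09 and F10). BMAL-/- mice lack a working copy of Arntl, whose product BMAL1 is a transcription factor of the circadian clock, and both strains were only partially backcrossed onto C57Bl/6J. All mice were kept under alternating 12 h of light and darkness for 2 weeks or more, spent the last 30 h or more in the dark and were killed at ZT14, early in what had been the dark phase. No age is stated in the labels, and the labels name the thoracic aorta as well as a dissection to beyond the femoral branches. The question is which of these enzymes differ in the aorta without BMAL1 at 1 time of day.

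Foreign compounds are typically handled in steps. Phase I enzymes, chiefly P450s and flavin-containing monooxygenases, add or expose a reactive group, and phase II transferases then couple glutathione, sulfate, glucuronic acid or a methyl group to it. The pathway is best known from the liver, where Dbp, Tef and Hlf, the PAR bZIP transcription factors, carry a daily rhythm from the clock to several of its genes in the mouse. In the vessel wall some of the same enzymes also act on signalling lipids made from arachidonic acid.

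The values are log2 expression, and array medians lay between 3.13 and 3.24. Their lower end is a dense floor at roughly 2 to 3, so a mean of at least 4 over the 9 arrays is used here as the mark of a member above the floor. On the brighter probe set of Arntl itself the BMAL-/- arrays F02, F03 and F08 read 5.87, 6.22 and 6.05 and F05 2.77, against 2.76, 2.79, 2.82 and 2.74 on F01, F07, F09 and F10 of BMAL+/+ and 6.67 on F04. The sources used here do not say whether this probe set covers the deletion, so its level does not check the labels, but it sets F05 and F04 apart from the arrays that share theirs. Nr1d2, a clock repressor, split the arrays the same way and read 5.08, 5.89 and 5.48 on the BMAL-/- arrays F02, F03 and F08 and 11.21 on F05, against 11.69, 11.27, 10.39 and 11.09 on F01, F07, F09 and F10 of BMAL+/+ and 5.81 on F04. F05 is therefore called the array labelled BMAL-/- and F04 the array labelled BMAL+/+, and every comparison was made with the 9 arrays as labelled and with the 7 arrays without F04 and F05 (3 BMAL-/- and 4 BMAL+/+). F01 carries BMAL+/+ in its title and strain and BMAL-/- in its source name, and it was kept in BMAL+/+. Values per array follow the order F02, F03 and F08, then F05, for BMAL-/-, and F01, F07, F09 and F10, then F04, for BMAL+/+.

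Of the 110 enzymes, 35 (31.8%) had a mean of at least 4, against 9699 of 18193 genes (53.3%). The families differed in how much of them lay above the floor. Glutathione S-transferases were above it for 13 of 21 genes, flavin-containing monooxygenases for 3 of 4, epoxide hydrolases for 2 of 4 and the Cyp1 family for 2 of 3. The large P450 families were mostly at the floor, with 5 of 35 Cyp2 genes, 3 of 13 Cyp4 genes and 0 of 5 Cyp3 genes above it. Sulfotransferases were above it for 3 of 13 genes and Ugt genes with a probe set of their own for 0 of 8. All 4 single genes were above it.

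With the 9 arrays as labelled, 0 of the 110 enzymes passed limma's test at an adjusted p of 0.05, where 0 of 18193 genes passed (0%). At an unadjusted p under 0.05, 0 enzymes were lower and 15 higher on the BMAL-/- arrays, against 0.731% of all genes lower and 6.52% higher. The groups did not overlap for 0 enzymes that were lower (0.165% of all genes) and for 1 that was higher (0.561%). That enzyme, Cyp4f16, which was singled out after its values were seen, lay at the floor on every array and differed by 0.05 in the 7 arrays. The median difference of the 110 enzymes, BMAL-/- minus BMAL+/+, was 0.03, and it was 0.03 over all genes.

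In the 7 arrays, 0 of the 110 enzymes again passed at an adjusted p of 0.05 in limma, where 3 of 18193 genes did (0.0165%). That count depends on the weight given to each array and on 1 array. With arrays weighted by their quality 62 enzymes passed (13 lower and 49 higher), and without F08 60 passed (12 lower and 48 higher). Without F08 the BMAL-/- arrays are F02 and F03, whose medians over all probe sets, 3.24 and 3.24, were the highest. The share of all genes that passed in these settings was not counted, so these counts say nothing about the enzymes in particular. At an unadjusted p under 0.05, 17 enzymes were lower and 34 higher on the BMAL-/- arrays, against 4.13% of all genes lower and 18.2% higher. The higher count depends on scaling: quantile normalization gave 16 lower and 16 higher, and centring the arrays on 1 median gave 17 lower and 6 higher. The share of all genes after such scaling was not counted. On 12 enzymes (10.9%) all 3 BMAL-/- arrays read below all 4 BMAL+/+ arrays, against 570 of 18193 genes (3.13%). On 23 enzymes (20.9%) all 3 read above, against 14.4% of all genes. The counts without overlap also shift with scaling, to 14 lower and 17 higher after quantile normalization and to 15 lower and 14 higher after the arrays were centred on 1 median. The median difference was 0.04, as over all genes.

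Over all 110 enzymes, 13 (11.8%) were lower by at least 1 on the log2 scale, against 2.39% of all genes, and 0 were higher by as much, against 1.07%. All 12 enzymes lower without overlap had a mean of at least 4, as did 549 of the 570 lower genes of all kinds (96.3%). Of the 23 that read higher, 21 had a mean under 4, as did 1922 of the 2615 higher genes (73.5%), and these 21 differed by only 0.03 to 0.23. The other 2 were Alas1 and Sult6b1. The mean is taken over both groups, and Cyp2f2, Gstt2 and Gsta3 averaged under 4 on the 3 BMAL-/- arrays, so they passed this mark through arrays on which they were high. No share of the 35 enzymes is therefore set against the genes above the floor. The plot of level against difference shows where the enzymes lie among all genes.

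**Figure D1:**
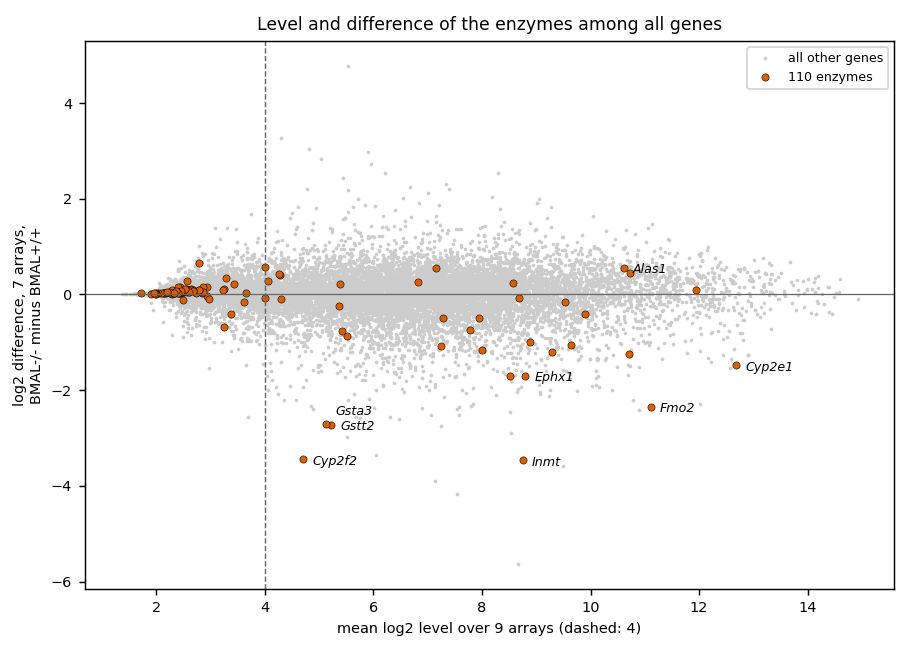
Mean log2 level over 9 arrays (x axis) and log2 difference in the 7 arrays, BMAL-/- minus BMAL+/+ (y axis), for the 110 enzymes (orange) and all other genes (grey), with the dashed line at a mean of 4. Inmt and Cyp2f2 differed by -3.47 and -3.44, Fmo2 by -2.34, and most enzymes left of the line lay near 0.

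The promoter windows of the lower enzymes were searched because these genes read low on the same arrays and because BMAL1 and the PAR bZIP factors bind known motifs. RefSeq promoters of assembly GRCm38.p6, from 250 bases before to 50 after each gene's start, matched 91 of the 110 enzymes with 112 windows, and 10 of the 12 lower ones with 11 windows. The E-box CACGTG, the letters that BMAL1 and CLOCK bind, was in 0 of these 11 windows, 2 of the 112 and 7.15% of all 32851 windows. The PAR bZIP letters TTANGTAA, searched with any base at N, were in 1 of 11, 4 of 112 and 2.32% of all. The match at Sult1a1 reads TTAGGTAA, and whether a PAR bZIP factor binds these letters was not tested. The xenobiotic response element TNGCGTG, bound by the dioxin receptor Ahr, was in 0 of 11, 4 of 112 and 5.07% of all, and the antioxidant response element TGACNNNGC, bound by Nrf2, in 1 of 11, 8 of 112 and 12.4% of all. Both strands were searched, and in the printed windows no matches overlap. Printed are Inmt, which had no match and differed most among the enzymes whose BMAL-/- mean was at least 4, and the only windows of lower enzymes with a match, Sult1a1 (PAR bZIP letters, 197 bases before the start) and Gsta3 (antioxidant element, 121 before), each 5′ to 3′ on the gene's strand with the match in capitals. They lie at chr6:55174941-55175240 (minus strand), chr7:126676369-126676668 (minus strand) and chr1:21240335-21240634 (plus strand).
Inmt: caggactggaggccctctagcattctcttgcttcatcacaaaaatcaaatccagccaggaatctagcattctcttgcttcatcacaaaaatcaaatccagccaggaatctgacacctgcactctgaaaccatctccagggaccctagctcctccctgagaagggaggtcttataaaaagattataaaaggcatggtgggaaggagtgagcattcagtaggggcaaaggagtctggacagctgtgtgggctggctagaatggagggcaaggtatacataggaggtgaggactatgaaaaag
Sult1a1: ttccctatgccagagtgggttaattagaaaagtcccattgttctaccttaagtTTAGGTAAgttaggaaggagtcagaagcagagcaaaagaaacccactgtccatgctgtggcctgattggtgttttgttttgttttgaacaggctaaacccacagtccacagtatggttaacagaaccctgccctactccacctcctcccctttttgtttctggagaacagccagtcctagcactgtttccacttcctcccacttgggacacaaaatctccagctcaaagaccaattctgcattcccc
Gsta3: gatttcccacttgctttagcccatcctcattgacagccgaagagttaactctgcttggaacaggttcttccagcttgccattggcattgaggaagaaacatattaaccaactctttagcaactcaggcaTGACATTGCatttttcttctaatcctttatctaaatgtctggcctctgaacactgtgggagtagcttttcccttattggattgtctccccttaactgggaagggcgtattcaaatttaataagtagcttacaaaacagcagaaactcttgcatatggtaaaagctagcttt

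Among the phase I P450s, Cyp2e1, which oxidises ethanol and small solvents, read 11.95, 11.34 and 12.33 on the BMAL-/- arrays and 13.77 on F05, against 13.30, 13.36, 13.69 and 13.08 on the BMAL+/+ arrays and 11.33 on F04. The groups did not overlap in the 7 arrays, and F05 and F04 each lay beyond the range of the group with the other label. BMAL-/- averaged 11.87 ± 0.50 (SD, n = 3), against 13.36 ± 0.25 (SD, n = 4) in BMAL+/+, which makes a difference of -1.48 ± 0.26 (SE) or 2.80-fold lower, with an adjusted p of 0.208 in limma and an exact permutation p of 0.0286, the smallest that 35 splits can give. With the 9 arrays the difference was -0.60 ± 0.59 (SE, adjusted p = 0.560).

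Cyp2f2, a P450 known from the airway epithelium of the mouse, where it activates naphthalene, read 2.17, 2.86 and 2.70 on the BMAL-/- arrays and 7.84 on F05, against 6.05, 4.81, 6.21 and 7.03 on the BMAL+/+ arrays and 2.72 on F04. It was thus at the floor on the 3 BMAL-/- arrays and on F04, so the difference of -3.44 ± 0.50 (SE, limma adjusted p = 0.208) does not resolve how much lower it was. Scgb1a1, the defining secretory protein of the airway cells, read 5.31 on F03 and 4.76 on F10, and 2.57 to 2.64 on the other 7 arrays.

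Cyp4b1, which acts on fatty acids and aromatic amines, read 7.91, 7.79 and 7.48 on the BMAL-/- arrays and 7.91 on F05, against 7.91, 8.16, 8.23 and 8.60 on the BMAL+/+ arrays and 7.54 on F04. The groups of the 7 arrays only just failed to overlap, with F02 and F01 both at 7.91, and the difference was -0.50 ± 0.21 (SE, limma adjusted p = 0.208). Cyp4v3, whose human counterpart hydroxylates fatty acids, differed by -1.07 ± 0.37 (SE, adjusted p = 0.208) with overlapping groups, and on its other probe set by -0.80 without overlap.

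The other P450s above the floor showed no separation. Cyp2b10, a target of the nuclear receptor CAR, read 6.93, 9.29 and 4.60 on the BMAL-/- arrays and 8.06 on F05, against 7.40, 4.80, 9.05 and 5.47 on the BMAL+/+ arrays and 5.76 on F04. Its spread within each group, 2.35 in BMAL-/- and 1.92 in BMAL+/+ (SD of the 7 arrays), exceeded its difference of 0.26 ± 1.39 (SE), and its 2 other probe sets differed by 0.48 and 0.42. Cyp1a1 and Cyp1b1, both induced through Ahr, differed by 0.58 ± 0.38 and 0.24 ± 0.23 (SE), and the other bright probe set of Cyp1b1 by -0.02. Cyp2d22 differed by 0.55 ± 0.37 and Cyp4f13 by -0.25 ± 0.17 (SE).

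All 3 flavin-containing monooxygenases above the floor read lower on the BMAL-/- arrays of the 7. These enzymes use flavin and NADPH to oxygenate nitrogen and sulfur atoms, and Fmo2 is best known as the form of the lung. Fmo2 read 9.21, 9.42 and 10.67 on the BMAL-/- arrays and 12.21 on F05, against 12.10, 12.24, 12.10 and 12.00 on the BMAL+/+ arrays and 10.03 on F04. The SD was 0.79 over the 3 BMAL-/- arrays and 0.10 over the 4 BMAL+/+ arrays, and the difference was -2.34 ± 0.35 (SE), or 5.07-fold lower (limma adjusted p = 0.208). Its 3 other bright probe sets differed by -1.80, -2.74 and -2.74, each without overlap.

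Fmo1 read 9.43, 10.54 and 9.88 on the BMAL-/- arrays and 11.75 on F05, against 11.66, 10.99, 11.32 and 10.86 on the BMAL+/+ arrays and 9.90 on F04. Fmo5, which inserts oxygen next to ketones, read 4.74, 5.05 and 5.07 on the BMAL-/- arrays and 6.08 on F05, against 5.79, 5.82, 5.97 and 5.67 on the BMAL+/+ arrays and 5.50 on F04. The groups of the 7 arrays did not overlap at either gene. The differences were -1.25 ± 0.31 for Fmo1 and -0.86 ± 0.14 for Fmo5 (SE), both with an adjusted p of 0.208 in limma, and with the 9 arrays they were -0.54 ± 0.50 and -0.52 ± 0.25 (adjusted p = 0.539 and 0.370). The other probe set of Fmo5 with a mean of at least 4 differed by -0.43 with overlap.

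The other oxidising and reducing enzymes, Aox1 and Nqo1, showed no separation. Aox1, the molybdenum enzyme aldehyde oxidase, differed by -0.16 ± 0.21 (SE), and Nqo1, a quinone reductase and a standard target of Nrf2, by 0.43 ± 0.27 (SE), both with overlapping groups. Alas1, which starts the synthesis of the haem that P450s carry, read 10.55, 11.25 and 10.79 on the BMAL-/- arrays and 10.49 on F05, against 10.41, 10.36, 10.33 and 10.10 on the BMAL+/+ arrays and 11.21 on F04. All 3 BMAL-/- arrays of the 7 thus read above the BMAL+/+ arrays, by 0.56 ± 0.19 (SE, limma adjusted p = 0.208). Its other probe set differed by -0.27 with overlapping groups, so the direction for Alas1 is not settled.

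**Figure D2:**
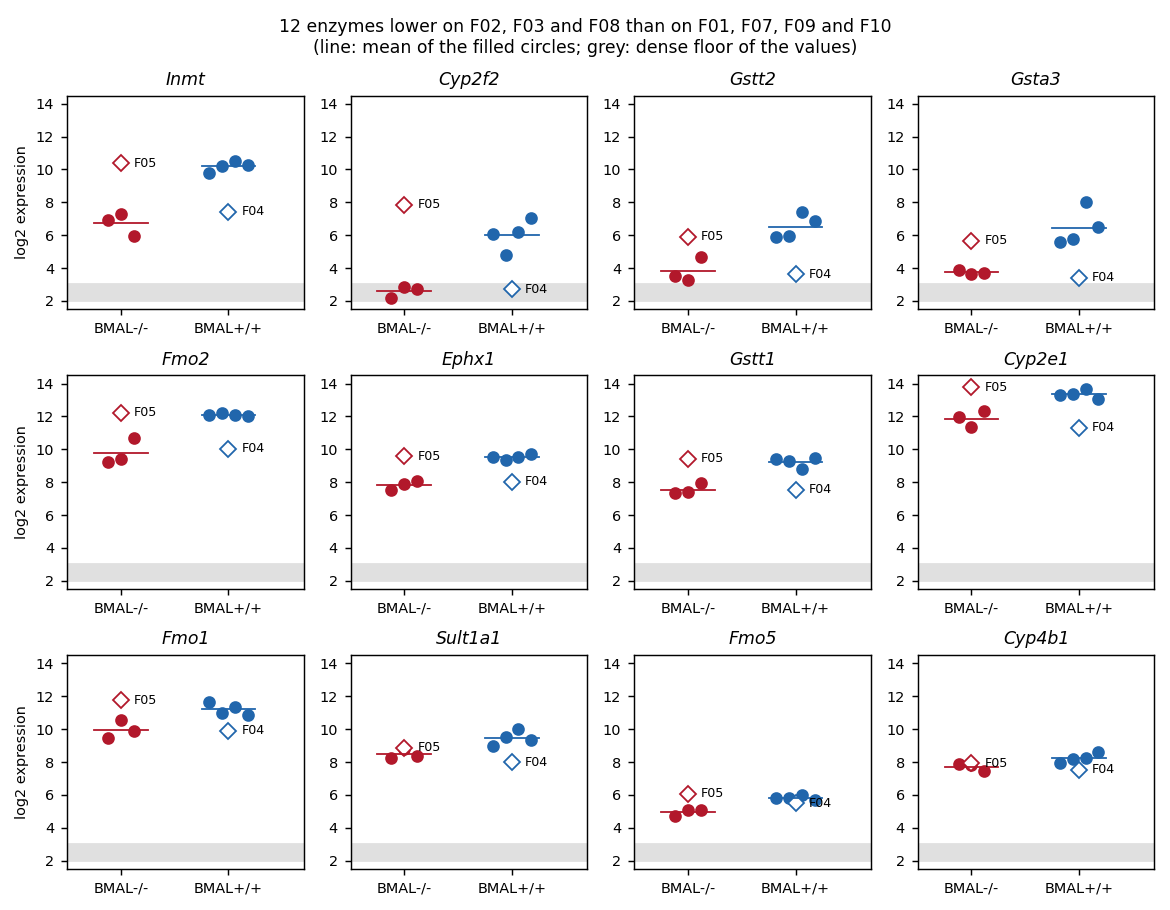
Log2 expression (y axis) of the 12 enzymes that read lower without overlap, for the BMAL-/- arrays (red, left) and the BMAL+/+ arrays (blue, right) of each panel, with filled circles for the 7 arrays, lines for their means and open diamonds for F05 and F04. At Inmt F05 read 10.39 and F04 7.44. The BMAL-/- circles of Cyp2f2 lie in the grey floor, those of Gsta3 above it at 3.65 to 3.90, and those of Gstt2 reach from 3.24 to 4.66.

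Of the epoxide hydrolases, Ephx1, the microsomal enzyme that turns epoxides of foreign compounds into diols, read 7.51, 7.90 and 8.06 on the BMAL-/- arrays and 9.57 on F05, against 9.51, 9.38, 9.51 and 9.72 on the BMAL+/+ arrays and 8.03 on F04. The groups of the 7 arrays lay more than 1 apart on the log2 scale. BMAL-/- averaged 7.83 ± 0.28 (SD, n = 3), against 9.53 ± 0.14 (SD, n = 4) in BMAL+/+, which makes a difference of -1.70 ± 0.18 (SE), 3.26-fold lower, with an adjusted p of 0.111 in limma and an exact permutation p of 0.0286. With the 9 arrays it was -0.97 ± 0.48 (SE, adjusted p = 0.370). Ephx2, the soluble enzyme that removes vasoactive epoxides of arachidonic acid, read 9.68, 9.65 and 9.76 on the BMAL-/- arrays and 9.87 on F05, against 9.64, 9.76, 11.22 and 9.76 on the BMAL+/+ arrays and 9.68 on F04. Its difference of -0.40 ± 0.40 (SE) rests on F09 and was -0.03 without that array.

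Among the enzymes whose mean on the 3 BMAL-/- arrays was at least 4, the largest difference was that of Inmt, a methyltransferase that passes a methyl group to tryptamine and related amines. Inmt read 6.94, 7.31 and 5.94 on the BMAL-/- arrays and 10.39 on F05, against 9.79, 10.18, 10.53 and 10.30 on the BMAL+/+ arrays and 7.44 on F04. The groups of the 7 arrays lay more than 2 apart, with averages of 6.73 ± 0.71 (SD, n = 3) in BMAL-/- against 10.20 ± 0.31 (SD, n = 4) in BMAL+/+. The difference was -3.47 ± 0.35 (SE), 11.1-fold lower, with an adjusted p of 0.111 in limma and an exact permutation p of 0.0286, and with the 9 arrays it was -2.00 ± 0.95 (SE, adjusted p = 0.370).

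Glutathione S-transferases couple glutathione to reactive compounds and are grouped into classes by sequence. In the theta class Gstt1 read 7.32, 7.38 and 7.92 on the BMAL-/- arrays and 9.43 on F05, against 9.44, 9.29, 8.79 and 9.45 on the BMAL+/+ arrays and 7.54 on F04. Gstt2 read 3.52, 3.24 and 4.66 on the BMAL-/- arrays and 5.89 on F05, against 5.89, 5.93, 7.40 and 6.87 on the BMAL+/+ arrays and 3.61 on F04. Neither gene's groups overlapped in the 7 arrays, with differences of -1.70 ± 0.24 and -2.72 ± 0.50 (SE, limma adjusted p = 0.208 for both). Gstt3, of the same class but with a mean of 3.24, differed by -0.68 ± 0.18 (SE) with overlap.

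Gsta3, an alpha-class enzyme named after its values were seen because it was among the 12, read 3.90, 3.65 and 3.72 on the BMAL-/- arrays and 5.67 on F05, against 5.58, 5.75, 8.03 and 6.49 on the BMAL+/+ arrays and 3.39 on F04. Its difference was -2.70 ± 0.58 (SE, limma adjusted p = 0.208), and its other probe set differed by -1.75, also without overlap. For Gstt2 and Gsta3 the BMAL-/- mean was under 4, so the sizes of these differences are not resolved. Gsta4, also of the alpha class, differed by -0.50 ± 0.30 (SE) with overlap.

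The mu-class enzymes Gstm1 and Gstm2, the kappa-class Gstk1 of mitochondria and peroxisomes, and Gstz1, which also serves in tyrosine breakdown, differed by -1.06 ± 0.31, -1.15 ± 0.45, -0.75 ± 0.62 and -1.20 ± 0.66 (SE). Their groups overlapped, and F08 was the highest of the 3 BMAL-/- arrays at each. Gstz1 for example read 8.09, 8.33 and 10.02 on the BMAL-/- arrays and 9.16 on F05, against 8.84, 9.82, 11.13 and 10.24 on the BMAL+/+ arrays and 7.96 on F04. The mean over 7 fat cell markers was also highest on F08 among these 3 arrays (10.99), with the highest BMAL+/+ value on F09 (11.45). So were the smooth muscle markers Myh11 and Tagln on F08 among the 3, at 12.78 and 13.43. Their highest BMAL+/+ values, 13.30 and 13.81, were on F07, as was that of Gstm2 (9.09). The part of these cell types in the Gst differences was not tested. The 2 other bright probe sets of Gstm1 differed by -1.11 and -0.08. Gstp1, the pi-class enzyme, differed by 0.10 ± 0.10, the omega-class Gsto1 by 0.45 ± 0.25 and the mu-class Gstm5, Gstm4 and Gstm7 by -0.08 ± 0.34, 0.23 ± 0.16 and 0.40 ± 0.24 (SE). The mu-class values had both signs, but none of these genes separated the groups of the 7 arrays. Gstt3, Gsta4, Gstm4 and Gstm7 were named after their values were seen. The mu-class genes are close in sequence, and a probe set of one can bind transcripts of another.

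Of the sulfotransferases, Sult1a1, which sulfates phenols, read 8.24, 8.76 and 8.38 on the BMAL-/- arrays and 8.87 on F05, against 8.96, 9.52, 9.99 and 9.34 on the BMAL+/+ arrays and 7.98 on F04. Without overlap in the 7 arrays, it differed by -0.99 ± 0.27 (SE, limma adjusted p = 0.208), and F05 lay nearer the BMAL-/- mean here. Sult5a1 differed by -0.76 ± 0.27 (SE) with groups that met at 5.40. Sult6b1 read 4.28, 4.28 and 4.05 on the BMAL-/- arrays and 4.14 on F05, against 3.90, 3.88, 3.90 and 3.98 on the BMAL+/+ arrays and 4.09 on F04, close to the floor, a difference of 0.29 ± 0.09 (SE).

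**Figure D3:**
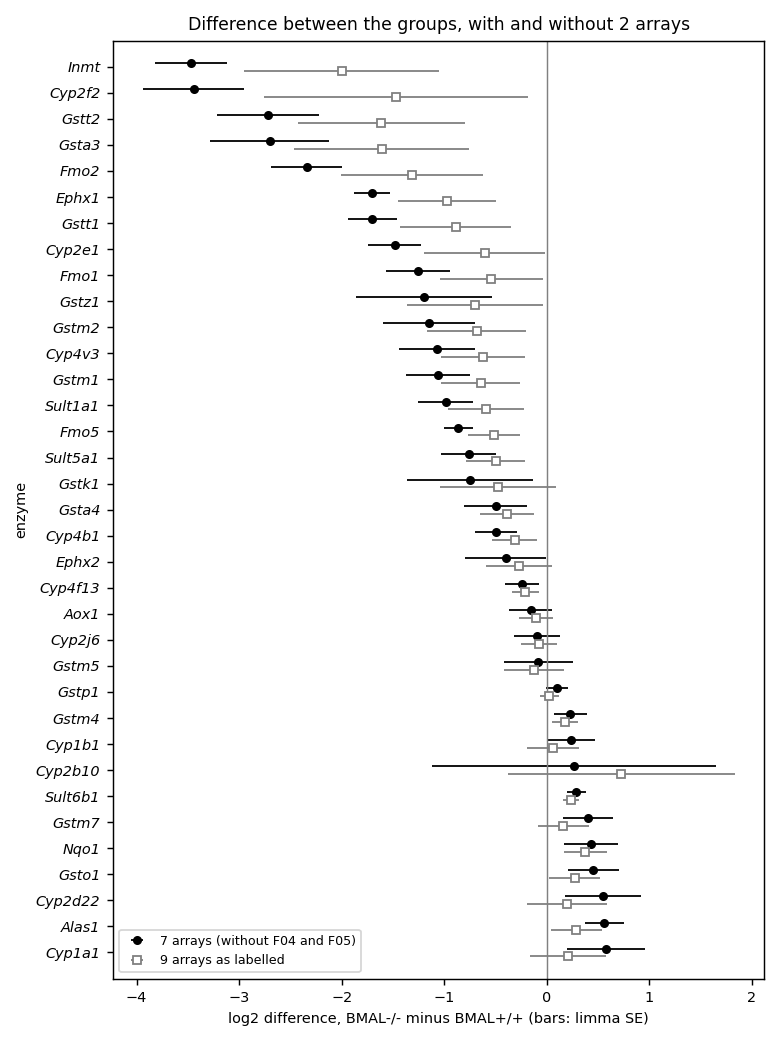
Log2 difference, BMAL-/- minus BMAL+/+, with limma's SE (x axis) for the 35 enzymes with a mean of at least 4 (y axis, ordered by the 7-array difference), in the 7 arrays (filled circles) and the 9 arrays as labelled (open squares). The 7-array differences reach from -3.47 at Inmt to 0.58 at Cyp1a1, and the 9-array ones of the lower enzymes lie nearer 0 with wider bars.

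F04 and F05 took no part in the 7-array comparison, so their values at the 12 lower enzymes stand apart from it. F04 lay nearer the BMAL-/- mean at 11 of the 12 and F05 nearer the BMAL+/+ mean at 10, and both held at 9 (75%), against 56.1% of the 570 genes of all kinds that read lower without overlap. Among those that also differed by at least 1, both held at 9 of 9 enzymes, against 137 of 175 genes (78.3%). All enzymes were read on the same 2 arrays and are not independent, so these shares only describe F04 and F05. The exceptions were Sult1a1 and Cyp4b1, where F05 stood with its label, and Fmo5, where F04 did. Whether these 2 samples were exchanged was not tested.

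**Figure D4:**
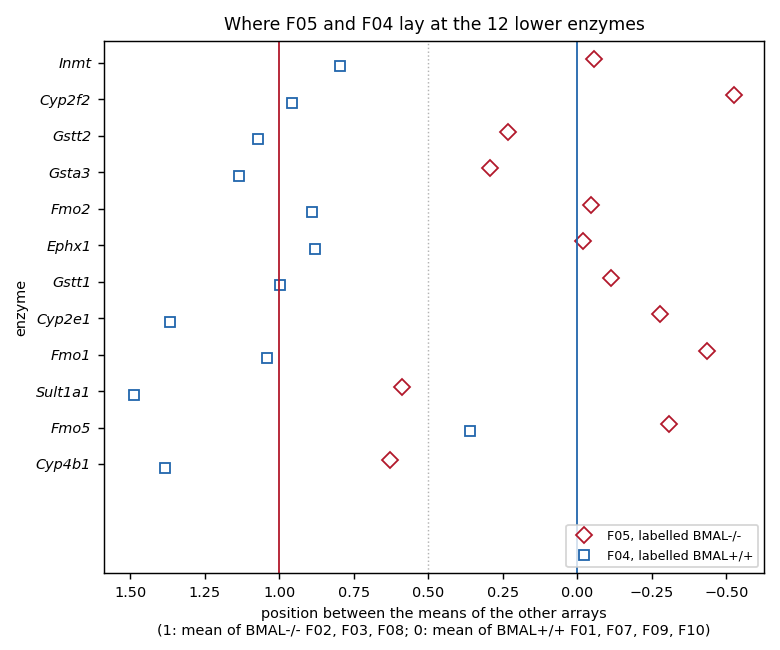
Position of F05 (diamonds, labelled BMAL-/-) and F04 (squares, labelled BMAL+/+) between the mean of the BMAL-/- arrays F02, F03 and F08 (1, left line) and that of F01, F07, F09 and F10, labelled BMAL+/+ (0, right line), for the 12 lower enzymes (y axis). At Inmt F04 lay at 0.80 and F05 at -0.06, and most squares lie left and most diamonds right of the dotted midpoint.

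**Figure D5:**
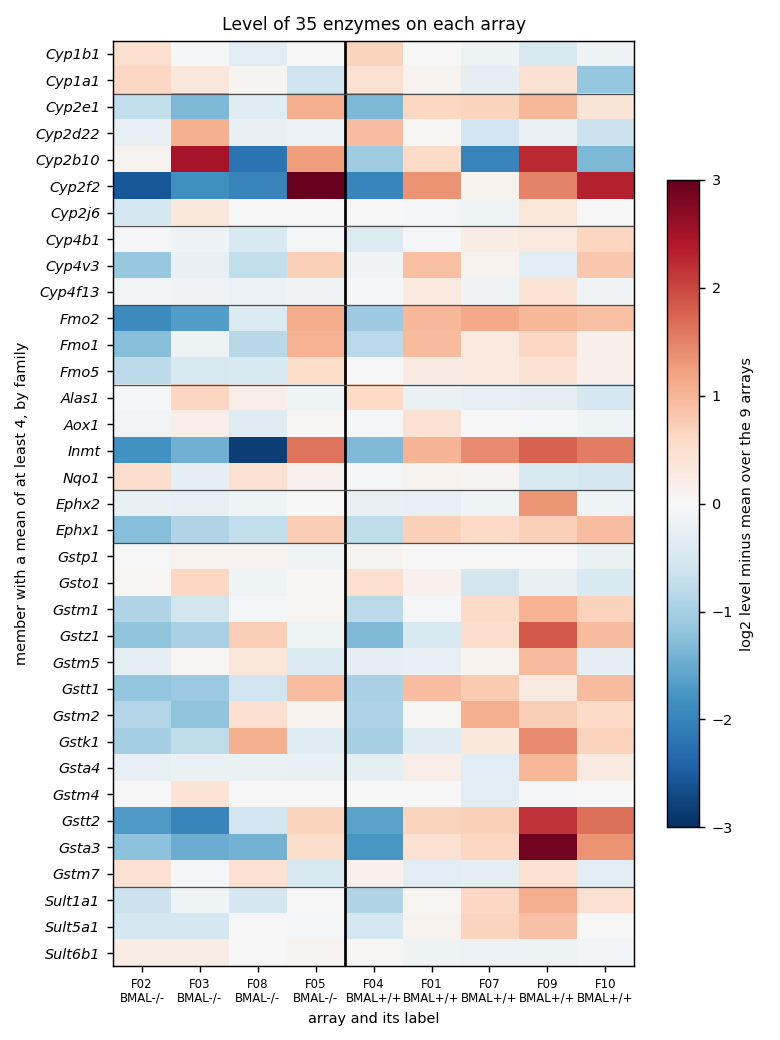
Log2 level minus the mean over the 9 arrays (colour, from -3 to 3) of the 35 enzymes with a mean of at least 4 (rows, by family) on each array (columns, BMAL-/- left of the black line). F05 is red and F04 blue at Inmt, Fmo2, Ephx1 and Cyp2f2, the reverse of the arrays that share their labels.

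Genes that work with these enzymes were read in the 7 arrays, where none passed an adjusted p of 0.05 in limma and their counts stand beside 3.13% lower and 14.4% higher without overlap over all genes. All 3 PAR bZIP factors read lower without overlap. Dbp read 7.88, 7.67 and 6.74 on the BMAL-/- arrays and 11.46 on F05, against 12.48, 10.78, 9.49 and 11.33 on the BMAL+/+ arrays and 7.67 on F04. The differences were -3.59 ± 0.69 for Dbp, -2.00 ± 0.26 for Tef and -2.36 ± 0.36 for Hlf (SE). Of 13 receptors and sensors, 1 was lower, Nfe2l2 (the gene of Nrf2, -0.62 ± 0.19), and 2 were higher, Rxrg (0.68 ± 0.25) and Hnf4a, the second at the floor. Nr1i2 and Nr1i3, the genes of the receptors PXR and CAR, lay at the floor on every array, between 2.19 and 2.41, and Ahr differed by 0.07 ± 0.37 (SE). Nr1i2 and Ahr were named after their values were seen.

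Further steps of the pathway held single genes that read lower without overlap beside most that did not. Of 20 aldehyde and carbonyl enzymes 3 were lower, Aldh2 (-1.93 ± 0.51), Adh1 (-0.89 ± 0.15) and Aldh1a1 (-0.76 ± 0.23), which oxidise aldehydes, alcohols and retinal, and 2 were higher, the retinal reductase Dhrs3 (1.16 ± 0.14, limma adjusted p = 0.16) and Cbr3 (0.49 ± 0.18, named after its values were seen). Of 10 hydrolases 2 were lower, the paraoxonase Pon1 (-1.69 ± 0.47) and Ces1f (-0.55 ± 0.21), and 1 was higher, Ces1g, at the floor, where Ces1e also lay (0.14 ± 0.05, with overlap). Papss2, which makes the sulfate donor of the sulfotransferases, was the 1 lower gene of 12 other conjugating enzymes (-1.49 ± 0.29), and Ugp2, which makes UDP-glucose, the 1 higher (0.39 ± 0.15). Nat1 and Glyat, at or near the floor, differed by 0.03 ± 0.01 and 0.23 ± 0.09 (SE) with overlap.

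Of 13 genes of electron and haem supply, Pgrmc1 (-0.56 ± 0.19) and Cpox (-0.63 ± 0.24) were lower and Fdx1 (0.70 ± 0.16) and Urod (0.64 ± 0.21) higher. Of 19 pumps and carriers, Slco2b1 (-1.12 ± 0.21) and Abcg2 (-0.73 ± 0.18) were lower, and 3 were higher, Abcc2 and Abcc3 at the floor and Abcc5 (0.62 ± 0.31, named after its values were seen). None of 8 genes of glutathione synthesis and the microsomal transferases was without overlap in either direction, and Gss, glutathione synthetase, differed by 1.37 ± 0.40 (SE) with overlap. Gsr, glutathione reductase, and Mgst2 differed by 0.60 ± 0.27 and 0.52 ± 0.23, and Ggt5, near the floor, by 0.19 ± 0.08 (SE), all with overlap.

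Smooth muscle, the main cell of the aortic wall, was present on every array, with Acta2 between 13.99 and 14.37. Some markers of several cell types read lower without overlap on the 3 BMAL-/- arrays of the 7. Of the marker means in this paragraph, only that of macrophages separated the groups of the 7 arrays. In bulk tissue, fewer cells of a type and less RNA per cell cannot be told apart. The mean over 10 fibroblast markers was 9.30 to 10.66 on the 3 BMAL-/- arrays and 10.98 on F05, against 10.59 to 11.15 on the 4 BMAL+/+ arrays and 10.14 on F04. Of these markers 4 read lower without overlap, Dcn (-1.17 ± 0.13), Dpt (-1.89 ± 0.39), Pi16 (-2.74 ± 0.71) and Gsn (-0.41 ± 0.11), while Pdgfra, Col1a1 and Col3a1 differed by 0.07, 0.64 and -0.09. The mean over 9 macrophage markers was 5.90 to 6.58 on the BMAL-/- arrays and 7.53 on F05, against 7.06 to 8.13 on the BMAL+/+ arrays and 6.49 on F04, with 4 of 9 lower without overlap. Smooth muscle markers were lower without overlap for 2 of 8 (Myh11 and Smtn), and their means were 9.77 to 11.19 on the BMAL-/- arrays and 11.16 on F05, against 11.05 to 11.54 on the BMAL+/+ arrays and 10.37 on F04. Heart muscle markers averaged 5.58 to 9.68 on the BMAL-/- arrays and 9.11 on F05, against 8.16 to 10.63 on the BMAL+/+ arrays and 6.12 on F04. Their median difference was -2.03, with Myl7 at -4.17 ± 1.47 (SE), and 0 of 5 were without overlap. The part of these cell types in the enzyme differences was not tested.

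Endothelial markers read lower without overlap for 2 of 8 (Pecam1 and Esam) and higher for 1 (Kdr), with means of 6.32 to 6.76 on the BMAL-/- arrays and 6.78 on F05, against 6.53 to 6.86 on the BMAL+/+ arrays and 7.04 on F04. Fat cell markers, with 0 of 7 lower without overlap, averaged 9.86 to 10.99 on the BMAL-/- arrays and 10.47 on F05, against 10.43 to 11.45 on the BMAL+/+ arrays and 10.19 on F04. Of 6 brown fat markers 0 were lower and 1 was higher without overlap. Their means were 9.82 to 10.46 on the BMAL-/- arrays and 10.01 on F05, against 9.29 to 11.32 on the BMAL+/+ arrays and 9.81 on F04. Ucp1, the defining gene of brown fat, read 13.10 to 14.32 on the BMAL-/- arrays and 13.50 on F05, against 13.16 to 14.68 on the BMAL+/+ arrays and 13.70 on F04. Liver, the usual site of these enzymes, left no trace in its defining gene Alb, which read 2.82 to 3.78 on the 9 arrays, with Apoa1, Apob, Ttr, Fgb and Tat also at the floor and only Hp above it. The means of the lung, adrenal cortex and kidney markers were under 4 on every array. Skeletal muscle markers averaged 9.09 to 10.78 on the BMAL-/- arrays and 6.98 on F05, against 4.15 to 10.96 on the BMAL+/+ arrays and 7.66 on F04. Red blood cell markers averaged 5.71 to 5.93 on the BMAL-/- arrays and 4.59 on F05, against 4.03 to 6.20 on the BMAL+/+ arrays and 5.38 on F04. Of 6 skeletal muscle and 3 red blood cell markers 0 were without overlap.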

How the data were processed

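The deposited series table holds log2 expression values per probe set for Affymetrix MOE430 v2 arrays, 1 per sample. GCRMA and MAS5 are named, per the submitters' processing notes, without role or version, and background, normalization and summary settings are not stated in the sources used here. A dense floor compresses differences of dim genes, so that tiny shifts there look precise. Precision is limited by the number of arrays.

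The deposited log2 values were used without a further normalization or filter. The 64 control probe sets were left out, and the annotation pairs 34945 of the other 45037 with 1 gene and 932 with several, from which no gene was named, and does not list 9160. Symbols were updated to RefSeq. The members, gene lists and tests were chosen with earlier results of these data known, as was the removal of F04 and F05.

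Genotype alone was modelled for all 45037 probe sets with limma 3.58.1 in R 4.3.3 (lmFit, eBayes with a trend, two-sided). The Benjamini-Hochberg adjustment ran over all of them, and the threshold was an adjusted p of 0.05. Each log2 difference is BMAL-/- minus BMAL+/+. Two-sided exact permutation tests over all 126 splits of 9 arrays or 35 splits of 7 were run for single enzymes. The labels do not say that the samples came from separate animals, so p-values measure the spread between these samples. The scripts were tested on simulated data.

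Named in the text are Inmt, Nqo1, Aox1 and Alas1, the 4 brightest members of each family with a mean of at least 4 (8 for Gst), the 8 and 4 smallest p of the 7 and 9 arrays, and the 4 smallest p of each pathway list. Exceptions among these are marked, and Arntl, Nr1d2 and the marker genes are named outside the rule. The arrays fall into separate sets, so no correlation between enzymes is given. Alternatives were quantile normalization, centring, other variance models and array weights, brightness filters, a floor, one-way ANOVA (the design's own), leaving out probe sets of the cross-matching types (_x_at, _s_at and _a_at), averaging the probe sets of each gene, F01 in BMAL-/- (with the 9 arrays only), and each array left out. Plots used matplotlib 3.10.9.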

Additional observations from a re-analysis of the deposited data

Results flagged for a closer look

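Within the groups as labelled, 62 groups of 31 enzymes were searched for 1 array far from the others, and 11 were found. Chance gives about 1 in 20 for a single group. The 62 groups are not independent, because all enzymes were read on the same arrays, so 11 is not set against that rate. Gsta3 was added to the search after its values were seen. At 7 of the 11 the array was F04 or F05. The array labelled BMAL+/+ F04 read 7.44 at Inmt, where the other BMAL+/+ arrays read 9.79 to 10.53, and 10.03 at Fmo2, where they read 12.00 to 12.24. It read 8.03 at Ephx1, with the others at 9.38 to 9.72, and 11.33 at Cyp2e1, with the others at 13.08 to 13.69. At Alas1 it was the high one, with 11.21 beside 10.10 to 10.41. The array labelled BMAL-/- F05 read 7.84 at Cyp2f2, where the other BMAL-/- arrays read 2.17 to 2.86, and 5.67 at Gsta3, where they read 3.65 to 3.90.

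The other 4 concern other arrays. Cyp2d22 read 8.22 on F03, beside 6.91 to 6.98 on the other BMAL-/- arrays. Ephx2 read 11.22 on F09, beside 9.64 to 9.76 on the other BMAL+/+ arrays. Aox1 read 9.97 on F01, beside 9.39 to 9.53, and Gstp1 11.74 on F10, beside 11.96 to 12.03, on the other BMAL+/+ arrays.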

How the results depend on the processing

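With the 9 arrays, the count of enzymes past the threshold stayed 0 in every alternative, the one-way ANOVA included. The count lower without overlap, 0, became 1 after centring, 0 to 2 when single arrays were left out and 12 without F04 and F05. The count higher, 1, became 0 under quantile normalization, centring, both brightness filters, leaving out cross-matching probe sets, averaging the probe sets of each gene and F01 in BMAL-/-, 1 to 22 when single arrays were left out and 23 without F04 and F05. The median difference was -0.013 after centring, -0.24 above the median brightness and -0.48 above the upper quartile.

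With the 7 arrays, 62 enzymes passed with array weights, 2 (Ephx1 and Inmt) among the 23 above the upper quartile of brightness and 0 to 60 when single arrays were left out, the 60 without F08. The share of all genes that passed in these settings was not counted. The count lower without overlap was 13 to 18 when single arrays were left out. The count higher, 23, was 14 after centring, 4 above the median brightness, 1 above the upper quartile and 24 to 68 when single arrays were left out. The median difference was 0.00233 under quantile normalization, -0.015 after centring, -0.32 above the median brightness and -0.75 above the upper quartile. Variance models do not enter counts of overlap or medians, and array weights do not enter counts of overlap. The causes were not tested, except that a filter leaves fewer enzymes.

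Some single differences changed sign. With the 9 arrays, array weights gave 0.23 for Cyp2e1, 1.52 for Cyp2f2, 0.17 for Cyp4v3, 0.42 for Fmo1, 0.10 for Fmo5, -0.10 for Cyp1a1 and -0.077 for Gstp1. Centring gave -0.013 for Gstp1, F01 in BMAL-/- gave 0.10 for Aox1, and Alas1 was -0.28 on its probe set of the single-match type. Leaving out single arrays gave -0.10 to 0.23 for Cyp1b1, -0.12 to 0.45 for Cyp2d22, -0.020 to 0.076 for Gstp1, -0.37 to 0.028 for Ephx2, -0.27 to 0.10 for Gstm5 and -0.063 to 0.44 for Cyp1a1. With the 7 arrays, array weights gave 0.031 for Aox1, Alas1 was -0.27 on its probe set of the single-match type, and leaving out single arrays gave -0.24 to 0.19 for Gstm5 and -0.91 to 1.43 for Cyp2b10. The 7-array difference of Inmt stayed between -3.76 and -3.07 and that of Ephx1 between -1.82 and -1.55, with adjusted p from 0.0075 to 0.318 in limma. No paired analysis was possible because the groups share no replicate numbers. Values near the floor limit the size of any difference there.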

Other observations

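The Ugt1a family, whose genes share their 3′ exons, is read by 3 probe sets that each match 8 genes and therefore stand outside the 110 enzymes. They lay above the floor, unlike the 8 Ugt genes with a probe set of their own, with means of 6.82, 7.27 and 6.65 over the 9 arrays. In the 7 arrays they differed by -0.51 ± 0.63, -1.38 ± 0.91 and -0.76 ± 0.69 (SE), with overlapping groups and limma adjusted p of 0.60, 0.322 and 0.467. On the second of these, F08 read 8.86 and the other BMAL-/- arrays of the 7 read 6.89 and 5.14, against 7.48, 8.15, 9.65 and 8.11 on the 4 BMAL+/+ arrays.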
